A study of Mus musculus with 32 samples.

Results

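Bone marrow-derived macrophages that lacked Trem2 were compared with wild-type macrophages after both had been kept in normal M-CSF and stimulated with LPS. The comparison used 8 of the 32 libraries of the series, chosen by their labels: 4 of the group T2KO, normal M-CSF, LPS and 4 of the group WT, normal M-CSF, LPS. The other 24 libraries belong to the 6 remaining combinations of genotype, low or normal M-CSF, and LPS or none, and they entered the statistical model and a few side comparisons. All groups carry the strain label C57BL/6. The knockout animals are the Trem2–/– mice described by Turnbull et al., a germline deletion, so that every cell of the culture carries it. Per the labels' protocols the stimulus was LPS at 10 ng/ml for 4 hours, after a night in complete RPMI with LCCM, taken to be L-cell conditioned medium, a source of M-CSF. Normal M-CSF was taken as 10% LCCM, an inference because no label joins the name to a percentage. Age and sex of the mice, and the mice or cultures behind the 4 libraries of a group, are not given in the sources used here, so p-values measure the spread between these libraries, which may be technical.

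TREM2 is a cell surface receptor of macrophages and microglia that binds lipids, lipoproteins and cell debris. It has no signalling tail of its own and passes its signal through the adaptor DAP12 (gene Tyrobp) to the kinase Syk, a route that M-CSF and its receptor CSF1R also use to sustain macrophage survival. LPS, a component of the outer membrane of Gram-negative bacteria, is sensed by TLR4 with CD14 and MD-2. One branch of the response, through MyD88, activates NF-κB and MAP kinases and induces cytokines and chemokines, and the other, through TRIF, induces interferon β and with it the interferon-stimulated genes.

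The libraries counted 3' ends of polyadenylated RNA, so a gene's count does not scale with its length, and values below are CPM, counts relative to the total of their library, after TMM scaling, a correction for differences in library composition. Total counts were 4451472 to 8929399 in the 4 knockout and 4137581 to 11415752 in the 4 wild-type libraries, and 3 counts, the most that a gene with no count could truly have at 95% confidence, corresponded to 0.263 to 0.725 CPM. In both groups the libraries formed pairs, 1 with 3 and 2 with 4. Counts of a pair differed with a chi-square of 5.25 to 8.18 per degree of freedom, and those of unpaired libraries with 9.79 to 34.3. This value also grows with the depth of the libraries compared, so the ranges do not measure likeness alone. The highest, 34.3, was that of wild-type libraries 1 and 2, the deepest of their group. The labels do not say whether such pairs are repeats of 1 sample, and if they are, n is 2 per group, so results with each pair summed are given as well. The macrophage markers Csf1r, Adgre1, Cd68, Fcgr1, Itgam, Spi1, Lyz2, Cd14 and Aif1 had 94.1 CPM or more in every library, whereas Mertk had 1.39 to 7.14 CPM. Xist was present in all 8 libraries and the Y-linked genes Ddx3y, Uty, Kdm5d and Eif2s3y had no count in any. Transcripts of lung epithelium set the groups apart: 12 markers of that tissue summed to 53.5 to 134 CPM in the wild-type and to 0.332 to 0.874 CPM in the knockout libraries.

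In this condition Trem2 transcripts were nearly absent from the knockout cells. Trem2 (Entrez 83433, chromosome 17 at 48346401 to 48352276, mm10) stood at 5.90, 4.94, 9.01 and 3.65 CPM in knockout libraries 1 to 4 and at 240.3, 194, 253 and 216 CPM in wild-type libraries 1 to 4. The groups did not overlap, and the knockout kept 2.60% of the wild-type level (two-sided exact permutation p = 0.0286, the smallest that 70 arrangements can give). The same ratio was 11.9% without LPS in normal M-CSF, and the genotype difference was larger with LPS by 2.15 on the log2 scale (edgeR interaction, adjusted p = 7.09e-05). In low M-CSF the ratio was 1.81% with LPS and 25.0% without, where knockout cells held 115 CPM, so Trem2 reads were not absent in every condition. A read from the polyadenylated end says nothing on whether a transcript still encodes the receptor.

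The partners of TREM2 were transcribed in the knockout cells. Of 26 genes of the receptor complex and its signalling route, 1 was lower and 25 did not pass the test, with a median log2 fold change of −0.01. The adaptor Tyrobp was at 864 to 1016 CPM in knockout and 714 to 864 CPM in wild-type libraries (log2 0.22 ± 0.16, adjusted p = 0.541), and the receptor Csf1r at 476 to 625 and 456 to 549.9 CPM (log2 0.13 ± 0.19, adjusted p = 0.822). With the replicate number as a block in a fit of the 8 libraries alone, 1 higher and 3 lower passed. That fit called 1271 of 10069 genes (12.6%), the share that every count given below with the block on the 8 libraries stands against. The kinase Syk had 147 to 180.2 CPM in knockout and 210.0 to 237 CPM in wild-type libraries. These ranges did not touch, yet the difference missed the threshold (log2 −0.42 ± 0.14, adjusted p = 0.0807), and it passed with that block (adjusted p = 0.0145) but not with libraries 1 and 3 and libraries 2 and 4 of each group summed (adjusted p = 0.745). The member that fell was Fgr, a Src-family kinase (log2 −1.54 ± 0.41, adjusted p = 0.0247). Fgr missed the threshold without knockout library 1, 2 or 4 or wild-type library 1 or 4, with adjusted p up to 0.088. Of 12 Trem family genes and relatives tested, 2 were higher and Trem2 itself lower. The higher members were B430306N03Rik, a neighbour of Trem2 in the gene cluster (log2 0.80 ± 0.20, adjusted p = 0.0138), and the inhibitory lipid receptor Cd300lf (log2 0.67 ± 0.20, adjusted p = 0.04996). B430306N03Rik missed the threshold without knockout library 3 or 4 or wild-type library 2 or 4, with adjusted p up to 0.111. Cd300lf missed the threshold without knockout library 1, 2 or 3 or wild-type library 1, 2, 3 or 4, with adjusted p up to 0.202. Trem1, which amplifies inflammatory signals, stood at 11.5 to 16.6 against 8.16 to 10.4 CPM (log2 0.59 ± 0.38, adjusted p = 0.47) and Treml2 at 8.65 to 14.8 against 4.70 to 7.62 CPM (log2 0.88 ± 0.31, adjusted p = 0.103). In both genes the groups did not overlap and neither passed, although Treml2 passed with the block on the 8 libraries (adjusted p = 0.0415) and missed with pairs of libraries summed (adjusted p = 0.365).

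Beside Trem2, genes differed in both directions in like number. Differences are log2 fold changes ± SE of the knockout against wild-type, tested with edgeR's quasi-likelihood test and adjusted by Benjamini-Hochberg over all genes tested. Of 11244 genes tested, 454 passed at an adjusted p under 0.05 (4.04%), of which 223 (1.98%) were higher and 231 (2.05%) lower in the knockout, around a median log2 fold change of 0.00 over all genes. In 413 of the 454 (3.67% of all genes) the 4 knockout and 4 wild-type libraries did not overlap, which was also true of 14.3% of all genes tested. The count fell to 44 when libraries 1 and 3 and libraries 2 and 4 of each group were summed, of which 43 (16 higher, 27 lower) were among the 454. It was 866 (8.60%) when the 8 libraries were fitted alone, and 1271 (12.6%) when the replicate number was added there as a block, and 412 of the 454 were among them. Without wild-type library 2 it was 230, without knockout library 3 287 and without wild-type library 4 290, and 179 of the 454 passed in all 8 omissions of 1 library. Libraries 1 and 3 alone called 698 genes (6.21%) and libraries 2 and 4 alone 1081 (9.61%). The 287 genes called in both sets were 41.1% of the first and 26.6% of the second, and 278 of them had the same direction. If each pair is repeats of 1 sample, each of these sets holds 1 sample per group. Its p-values then measure technical spread only. Of the genes named below, those that still passed with pairs summed were Sftpc, Scgb1a1, Erdr1, G530011O06Rik, Aacs, Flrt3, Ifi208, Cav1, Cd24a, Col4a5, Eepd1, Nr1h3, Atp6v0d2, Sdc1 and Vmn2r115 on the lower side. On the higher side they were Pla2g7, Serpina3g, Fgl2, Slc40a1, Cxcl9, Enpp4, H2-T10, Wdfy1 and Egr1. The other called genes named below, many cytokine, chemokine and interferon genes among them, missed the threshold in that setting. With the replicate number as a block over all 32 libraries 416 genes passed, and 8 called genes named below missed narrowly. They were Oard1 (adjusted p = 0.0548), Pfkp (0.0552), Tnfrsf1a (0.0564), Tpx2 (0.0595), Rpl6 (0.0599), Itgav (0.06), Cd36 (0.0614) and Tnip1 (0.0619).

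**Figure D1:**
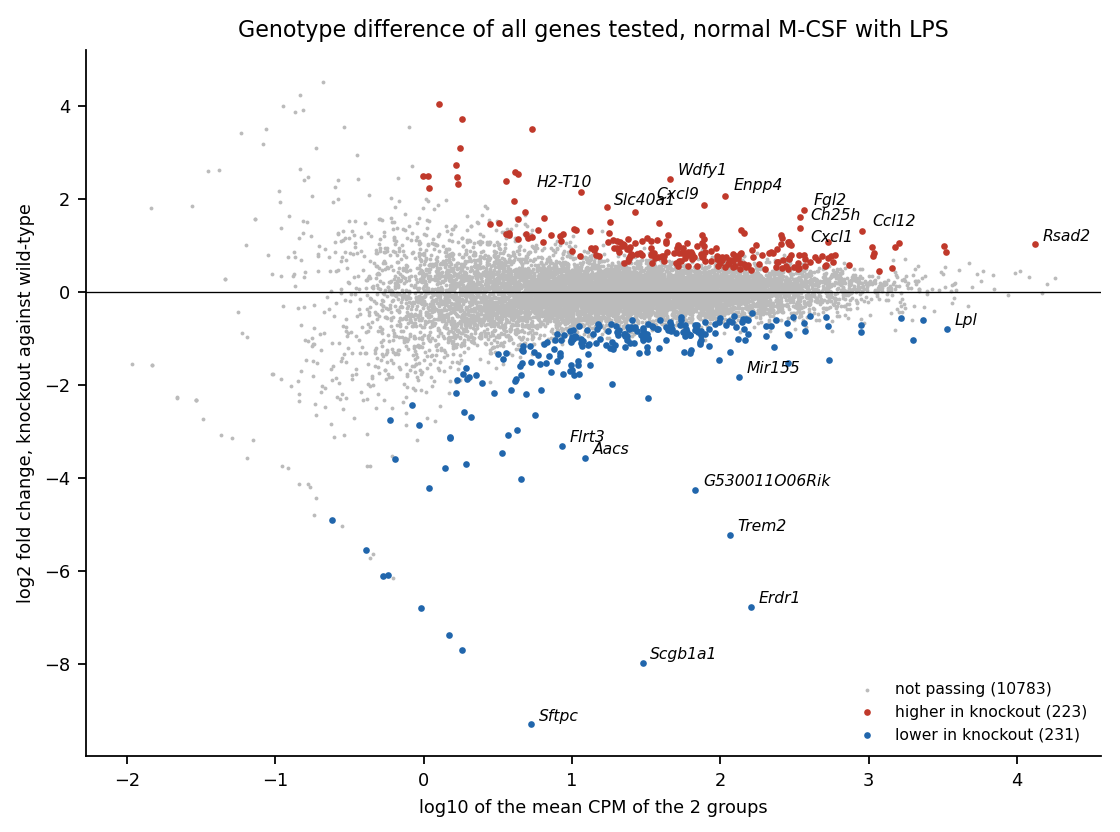
Each point is a gene, placed by the log10 of its mean CPM over the 2 groups (horizontal) and its fitted log2 fold change, knockout against wild-type (vertical); 7 genes with no count in these 8 libraries are not drawn. The 223 higher genes (red) lie mostly below a log2 fold change of 2, while a few of the 231 lower genes (blue), Trem2 among them, reach far below −3; the fitted value of Sftpc, with no knockout count, is not a bound.

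The genes with the largest higher values included membrane enzymes, a chemokine and an iron exporter. Wdfy1, an endosomal protein that carries TRIF to Toll-like receptors (Entrez 69368, chromosome 1 at 79702262 to 79776143), had 77.6, 82.1, 66.6 and 83.8 CPM in knockout and 16.7, 14.3, 14.2 and 12.1 CPM in wild-type libraries. The knockout level was 5.41 times the wild-type level (log2 2.42 ± 0.23, adjusted p = 1.87e-09). Enpp4, a nucleotide pyrophosphatase of the cell surface (Entrez 224794, chromosome 17 at 44096307 to 44105809), had 181, 171, 167 and 174 against 36.6, 46.4, 42.6 and 40.3 CPM. In both genes every knockout library lay far above every wild-type library. Fgl2, a prothrombinase and immune regulator, had 632, 489.7, 648 and 504 against 171, 154, 176 and 171 CPM, 3.38 times the wild-type level (log2 1.76 ± 0.16, adjusted p = 1.65e-09). Slc40a1, ferroportin, the exporter of iron from cells, had 27.1, 20.3, 29.9 and 29.9 against 7.45, 7.31, 8.87 and 6.68 CPM (log2 1.82 ± 0.20, adjusted p = 4.15e-08). These libraries too were fully separated by genotype. Pla2g7, which hydrolyses platelet-activating factor, was higher with 39.3 to 74.5 against 16.02 to 23.2 CPM (log2 1.47 ± 0.20, adjusted p = 5.84e-06), and so was Papss2, which makes the sulfate donor of the cell (log2 1.35 ± 0.28, adjusted p = 0.00297). The protease inhibitors Serpina3g (log2 1.72 ± 0.30, adjusted p = 0.000393) and Serpina3f (log2 1.49 ± 0.33, adjusted p = 0.00524) and the class I-like genes H2-T10 (log2 2.14 ± 0.34, adjusted p = 0.00011) and H2-T24 (log2 1.34 ± 0.22, adjusted p = 0.000215) were higher too. They belong to families of near-identical genes, and counting can split their reads, so that their levels are uncertain. Tubb2b, a tubulin, was higher as well (log2 1.33 ± 0.38, adjusted p = 0.0365). Tubb2b missed the threshold without knockout library 1, 3 or 4 or wild-type library 1, 2 or 4, with adjusted p up to 0.131.

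On the lower side, the largest differences fell on genes of several kinds. Erdr1 (Entrez 170942, chromosome X at 170010526 to 170018797), a gene of the pseudoautosomal end of the X chromosome, had 0.655, 3.96, 2.34 and 4.65 CPM in knockout and 361, 332, 285 and 304 CPM in wild-type libraries (log2 −6.78 ± 0.38, adjusted p = 7e-16). Its neighbourhood is repetitive and read counts there can be shared between copies. The non-coding transcript G530011O06Rik, also on chromosome X, had 4.70 to 9.61 against 116 to 154 CPM (log2 −4.26 ± 0.35, adjusted p = 9.08e-11). Aacs, which activates acetoacetate for lipid synthesis, had 0.218, 2.22, 1.40 and 3.65 against 27.1, 21.0, 27.3 and 15.1 CPM (log2 −3.57 ± 0.38, adjusted p = 3.23e-08), and Flrt3, an adhesion and guidance protein, 1.09, 0.494, 1.40 and 2.99 against 15.6, 18.97, 18.1 and 10.1 CPM (log2 −3.32 ± 0.42, adjusted p = 1.35e-06). Libraries of the genotypes did not overlap for any of these. Ifi208 of the interferon-inducible p200 family (log2 −2.28 ± 0.26, adjusted p = 2.16e-07), the caveola protein Cav1 (log2 −1.99 ± 0.30, adjusted p = 3.93e-05), the coagulation factor F10 (log2 −1.79 ± 0.33, adjusted p = 0.000784) and the endonuclease-like Eepd1 (log2 −1.73 ± 0.28, adjusted p = 0.000114) were lower. So were the surface glycoprotein Cd24a (log2 −1.77 ± 0.30, adjusted p = 0.000237) and the basement membrane collagen Col4a5 (log2 −1.76 ± 0.32, adjusted p = 0.000621). Ifi208 and the class I-like H2-T23 (log2 −2.25 ± 0.51, adjusted p = 0.00614) have close relatives and are uncertain in the same way. H2-T23 split the wild-type group, with 9.61 and 7.80 CPM in libraries 1 and 3 and 26.5 and 28.0 CPM in libraries 2 and 4.

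The largest differences of all belonged to lung transcripts that were present in the wild-type libraries. Sftpc, surfactant protein C, had no count in the 4 knockout libraries and 11.3, 8.37, 13.3 and 9.40 CPM in the wild-type libraries, and against a floor of 3 counts over the knockout group it was at least 86.4-fold lower. Scgb1a1, the club cell secretory protein, had 0.437, 0, 0.117 and 0.332 against 33.8, 41.7, 61.2 and 102 CPM (log2 −7.99 ± 1.05, adjusted p = 3.83e-06). All 12 lung markers, Sftpc, Sftpb, Sftpa1, Sftpd, Scgb1a1, Scgb3a1, Scgb3a2, Cyp2f2, Cldn18, Ager, Slc34a2 and Epcam, had counts in the wild-type group, and 8 of them had none in the knockout group. This list was drawn up after the values were seen. The same sum was 33.9 to 65.0 CPM in wild-type libraries in normal M-CSF without LPS. In low M-CSF with LPS it was 107 and 121 CPM in wild-type libraries 1 and 3 and 0.413 and 0.428 CPM in libraries 2 and 4, and it reached at most 2.62 CPM in any knockout library of the series. The part these transcripts have in the other differences was not tested.

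Cytokine genes were higher on balance in the knockout. Of 34 tested, 6 were higher, 1 was lower and 27 did not pass, with a median log2 fold change of 0.29 against 0.00 for all genes. Il6, the inducer of acute-phase proteins and of T helper differentiation (Entrez 16193, chromosome 5 at 30013114 to 30019975), had 429.5, 335, 369 and 475 CPM in knockout and 144, 185, 212 and 261 CPM in wild-type libraries. The lowest knockout value lay above the highest wild-type value, and the knockout mean was 2.01 times the wild-type mean (log2 1.01 ± 0.27, adjusted p = 0.0222). Il12b, the shared subunit of interleukins 12 and 23, had 1997, 2303, 1187 and 2479 against 629, 1485, 771 and 1203 CPM (log2 0.96 ± 0.27, adjusted p = 0.0366). Here knockout library 3 fell below wild-type library 2, so that the groups overlapped. Osm, oncostatin M, had 75.8, 55.9, 72.5 and 63.6 against 36.4, 33.6, 41.1 and 39.8 CPM (log2 0.83 ± 0.19, adjusted p = 0.00776), Il15, which sustains natural killer and memory T cells, 357, 319, 375 and 388 against 204, 205, 226 and 237 CPM (log2 0.72 ± 0.18, adjusted p = 0.0151). Gdf15, a stress cytokine, had 95.2, 94.9, 105 and 112 against 54.7, 50.4, 49.3 and 43.3 CPM (log2 1.04 ± 0.24, adjusted p = 0.00766). The death ligand Tnfsf10 was higher (log2 0.79 ± 0.20, adjusted p = 0.0146), and the lymphatic growth factor Vegfc was lower, at 1.99 to 2.62 against 7.45 to 13.2 CPM (log2 −2.12 ± 0.53, adjusted p = 0.0143). Il6 missed the threshold without knockout library 1 or 4 or wild-type library 1 or 2, with adjusted p up to 0.0946. Il12b missed the threshold without knockout library 1, 2 or 4 or wild-type library 1, 3 or 4, with adjusted p up to 0.145. Osm missed the threshold without wild-type library 2 (adjusted p = 0.0515). Il15 missed the threshold without knockout library 4 or wild-type library 1 or 2, with adjusted p up to 0.0694. Tnfsf10 missed the threshold without knockout library 3 or wild-type library 1, with adjusted p up to 0.0529. Vegfc missed the threshold without knockout library 3 or wild-type library 2, with adjusted p up to 0.071.

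The best known early cytokines did not pass. Tnf had 4224, 3686, 3633 and 2839.6 CPM in knockout and 2494, 2887, 2744 and 2909.9 CPM in wild-type libraries, and knockout library 4 lay within the wild-type range (log2 0.38 ± 0.15, adjusted p = 0.18). Il1b had 3795, 3456, 2813 and 3524 against 2517, 3473, 2869 and 3886 CPM (log2 0.09 ± 0.26, adjusted p = 0.911), with full overlap. Il10, which limits the response, had 16.1 to 26.4 against 13.7 to 17.03 CPM (log2 0.42 ± 0.30, adjusted p = 0.532), and Ifnb1, interferon β, 5.93 to 11.8 against 1.13 to 6.72 CPM (log2 0.94 ± 0.55, adjusted p = 0.42). With these standard errors a moderate change in Ifnb1 would not have been called, so its p does not show that the levels were alike.

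Chemokine genes were higher where they passed. Of 15 CC chemokine genes and receptors 2 were higher (median 0.36), and of 10 CXC genes 2 were higher (median 0.17), with none lower. Cxcl9, which attracts T cells through CXCR3 (Entrez 17329, chromosome 5 at 92321331 to 92328079), had 137, 109, 132 and 111 CPM in knockout and 25.2, 32.9, 34.8 and 41.6 CPM in wild-type libraries, 3.64 times the wild-type mean (log2 1.87 ± 0.24, adjusted p = 2.26e-06). Cxcl1, which attracts neutrophils, had 599.7, 517, 497 and 390.0 against 186, 209, 172 and 206 CPM (log2 1.37 ± 0.31, adjusted p = 0.00557). For both, the groups were widely separated. The monocyte attractants Ccl12 (1231, 1128, 1389.6 and 1409.8 against 508, 458, 563 and 555 CPM, log2 1.31 ± 0.27, adjusted p = 0.0029) and Ccl7 (4488, 3958, 4628 and 4101 against 2454, 2205, 2475 and 2419 CPM, log2 0.85 ± 0.19, adjusted p = 0.00621) were higher, and Ccl2 of the same cluster, at 5135 to 6503 against 3304 to 4131 CPM, missed the threshold (log2 0.62 ± 0.19, adjusted p = 0.056). These 3 genes are close in sequence and counting may share reads among them. Ccl5 (log2 0.56 ± 0.19, adjusted p = 0.0833), Cxcl10 (log2 0.43 ± 0.32, adjusted p = 0.558) and Cxcl2 (log2 0.32 ± 0.21, adjusted p = 0.494) did not pass either. With the block on the 8 libraries Ccl2 (adjusted p = 0.000318), Ccl5 (0.00389) and Cxcl10 (0.00211) passed, and the count of CC members was 6 in place of 2. With pairs summed all 3 missed, at an adjusted p of 0.447 for Ccl2, 0.591 for Ccl5 and 0.885 for Cxcl10.

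**Figure D2:**
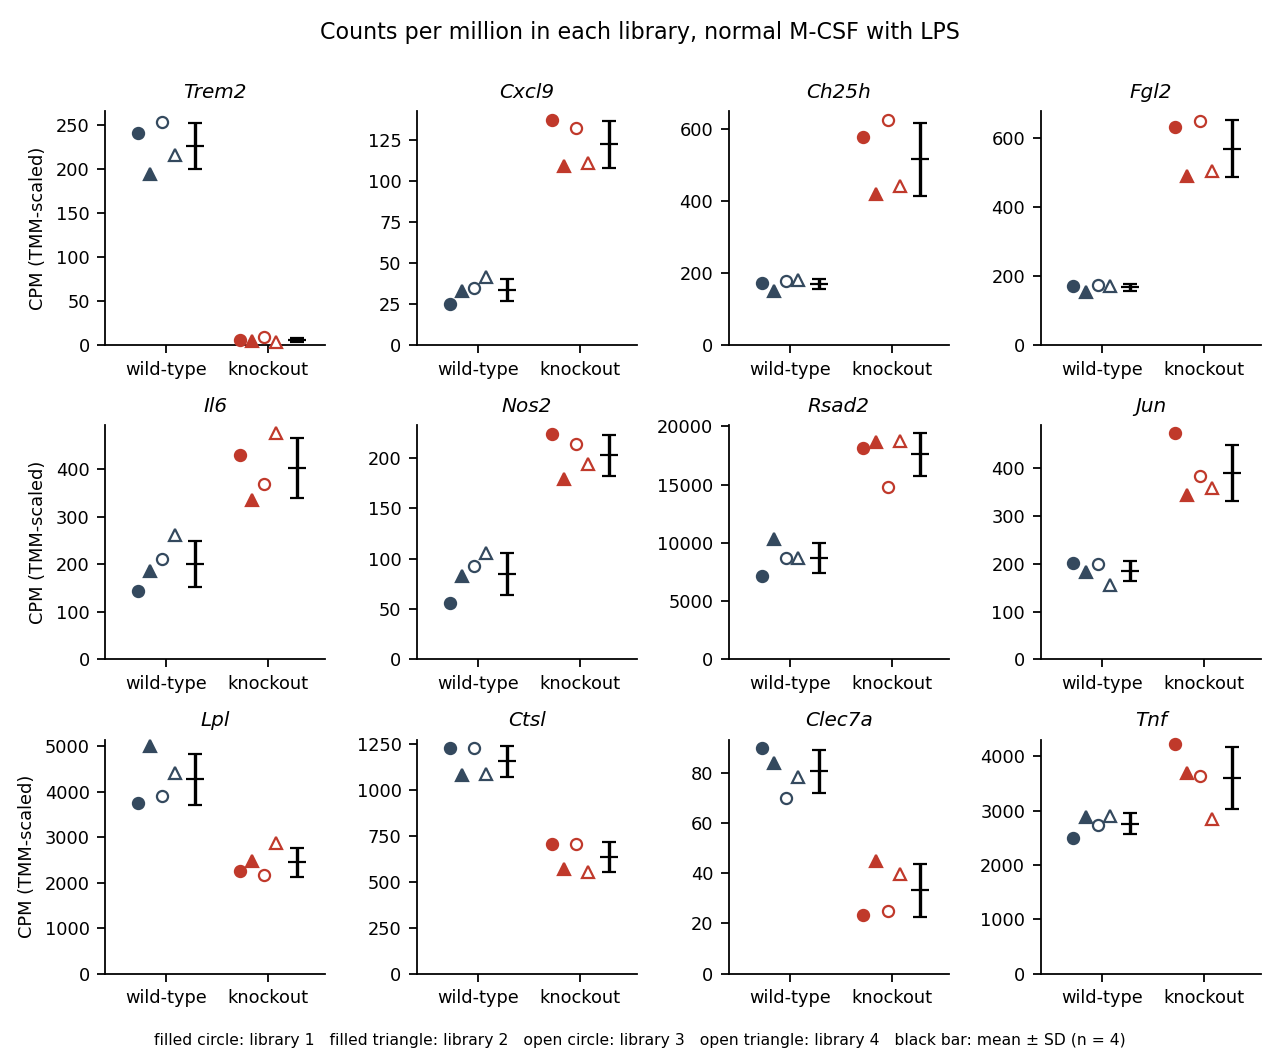
Each panel shows 1 gene in CPM from 0, with the 4 wild-type libraries (dark blue) and the 4 knockout libraries (red), library numbers marked by symbol and black bars for the mean and SD. The groups are separate for Cxcl9, Ch25h, Fgl2, Il6, Nos2, Rsad2 and Jun, higher in knockout, and for Trem2, Lpl, Ctsl and Clec7a, lower in knockout; for Tnf they overlap.

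Interferon-stimulated genes were shifted upward as a list, with fewer members past the test. Of 59 tested, 7 were higher and none lower, 54 had a positive fold change, and the median was 0.33 against 0.00 for all genes. The list does not hold the interferon-inducible Ifi208 named above, which was lower (log2 −2.28) and also passed with pairs summed. Rsad2, the antiviral enzyme viperin, had 18164, 18697, 14839 and 18727 CPM in knockout and 7167, 10311, 8679 and 8664 CPM in wild-type libraries, 2.02 times the wild-type mean (log2 1.02 ± 0.21, adjusted p = 0.00303). Its neighbour Cmpk2, a mitochondrial nucleotide kinase, had 2243, 2060.1, 2225 and 2135 against 888, 1120.3, 1173 and 1032 CPM (log2 1.04 ± 0.25, adjusted p = 0.0107). Gbp2, a guanylate-binding protein of cell-autonomous defence, had 661, 648, 648 and 698 against 339.8, 412, 427 and 420.3 CPM (log2 0.73 ± 0.16, adjusted p = 0.00557). In all 3 the groups were separate. The GTPase Iigp1, which has near-identical relatives (log2 1.15 ± 0.28, adjusted p = 0.0134), Slfn4 (log2 0.93 ± 0.24, adjusted p = 0.0212), Ifit1, a sensor of foreign RNA (log2 0.97 ± 0.27, adjusted p = 0.0313), and Usp18, the brake on interferon receptor signalling (log2 0.74 ± 0.21, adjusted p = 0.0391), completed the higher members. The effectors Mx1, at 662 to 756 against 475 to 664 CPM (log2 0.29 ± 0.21, adjusted p = 0.558), and Irf7, the amplifying transcription factor, at 374 to 523 against 294 to 342 CPM (log2 0.49 ± 0.27, adjusted p = 0.39), did not pass, although Irf7 did so with the block on the 8 libraries (adjusted p = 0.014) and missed with pairs summed (adjusted p = 0.797). The count of 7 became 26 with that block, 20 in the 8 libraries alone without it, 0 with pairs summed, and 3 to 5 when 1 library was omitted. Iigp1 missed the threshold without knockout library 4 or wild-type library 1, with adjusted p up to 0.0741. Slfn4 missed the threshold without knockout library 3 or 4 or wild-type library 2 or 4, with adjusted p up to 0.0762. Ifit1 missed the threshold without knockout library 1, 2 or 4 or wild-type library 1, 2, 3 or 4, with adjusted p up to 0.0889. Usp18 missed the threshold in each of the 8 omissions of 1 library, with adjusted p up to 0.128.

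Promoter sequence was available in RefSeq (build GRCm38.p6, which has the mm10 coordinates) for 9096 of the genes tested, and the 250 bases before the annotated start were searched on both strands. A stretch matching an NF-κB site (GGG and TTTCC with any 2 bases between) was held by 5.42% of the higher, 1.70% of the lower and 1.82% of all genes tested with a promoter. The interferon-stimulated response element (GAAA, any 2 bases and GAAA again) was held by 8.43%, 2.84% and 3.46%. The interferon γ-activated site (TTCNNNGAA) gave 9.04%, 5.11% and 7.15%, and the AP-1 site (TGANTCA) 10.2%, 5.68% and 5.42%. These shares rest on 166 higher and 176 lower genes and are descriptions, and a match does not show that a factor binds. The promoters of 2 called inflammatory genes and 2 called interferon-stimulated genes are shown, 5' to 3' on the strand of the gene, with the NF-κB match or matches of the first pair and the interferon element of the second pair in capitals.
Il6 (chr5:30012864-30013113, plus strand): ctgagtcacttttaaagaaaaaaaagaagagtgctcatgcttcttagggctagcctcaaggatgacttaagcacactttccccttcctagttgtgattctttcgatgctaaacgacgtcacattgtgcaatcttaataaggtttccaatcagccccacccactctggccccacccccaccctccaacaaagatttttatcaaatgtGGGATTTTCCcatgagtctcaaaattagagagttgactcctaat
Cxcl1 (chr5:90890995-90891244, plus strand): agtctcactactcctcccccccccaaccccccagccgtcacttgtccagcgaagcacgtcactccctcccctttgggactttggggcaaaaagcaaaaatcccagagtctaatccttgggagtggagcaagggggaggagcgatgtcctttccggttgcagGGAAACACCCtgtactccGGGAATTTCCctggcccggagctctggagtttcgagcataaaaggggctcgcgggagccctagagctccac
Rsad2 (chr12:26456453-26456702, minus strand): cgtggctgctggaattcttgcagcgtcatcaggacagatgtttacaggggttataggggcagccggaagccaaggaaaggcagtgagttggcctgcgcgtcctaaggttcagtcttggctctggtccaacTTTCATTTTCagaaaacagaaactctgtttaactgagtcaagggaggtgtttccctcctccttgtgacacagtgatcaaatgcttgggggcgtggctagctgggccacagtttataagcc
Gbp2 (chr3:142620413-142620662, plus strand): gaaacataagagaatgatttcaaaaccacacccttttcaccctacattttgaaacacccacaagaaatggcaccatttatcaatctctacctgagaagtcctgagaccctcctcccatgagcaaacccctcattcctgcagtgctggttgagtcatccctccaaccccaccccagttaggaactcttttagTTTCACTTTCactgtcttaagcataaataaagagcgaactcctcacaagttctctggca

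The sensors of LPS themselves did not change at the threshold. None of 32 genes of LPS sensing and signalling passed (median 0.10, 5 with an unadjusted p under 0.05). Tlr4 had 20.4 to 33.7 CPM in knockout and 16.02 to 25.7 CPM in wild-type libraries (log2 0.46 ± 0.19, adjusted p = 0.196), and Cd14 1144 to 1457 against 864 to 1128 CPM (log2 0.40 ± 0.18, adjusted p = 0.228). The Cd14 ranges did not touch, and Cd14 passed with the block on the 8 libraries (adjusted p = 0.00713) and missed with pairs summed (adjusted p = 0.707). The block gave 3 higher on the sensing list, a share below the 12.6% of all genes in that fit. Of 27 feedback inhibitors of NF-κB and cytokines, 1 was higher and 1 lower (median 0.11), and with the block 6 higher and 2 lower. The deubiquitinase Otud1 was higher (log2 0.67 ± 0.17, adjusted p = 0.0134) and Tnip1, which restrains NF-κB with A20, was lower, at 217 to 275 against 327 to 422 CPM (log2 −0.54 ± 0.16, adjusted p = 0.045). Nfkbia, the inhibitor IκBα (log2 −0.30 ± 0.18, adjusted p = 0.428), and Socs3, the inhibitor of interleukin 6 signalling (log2 0.41 ± 0.24, adjusted p = 0.426), did not pass. Socs3 had 493 and 482 CPM in knockout libraries 1 and 3 and 856 and 1115 CPM in libraries 2 and 4. Otud1 missed the threshold without knockout library 3 or wild-type library 2, with adjusted p up to 0.0816. Tnip1 missed the threshold without knockout library 1, 2, 3 or 4 or wild-type library 1, 2 or 4, with adjusted p up to 0.159.

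Immediate-early transcription factors, many of which a stimulus such as LPS induces within minutes, were higher in 5 of 26 tested and lower in none (median 0.14). At 4 hours not all of these 5 were raised by LPS in wild-type cells in this medium. Mean wild-type CPM without and with LPS was 288 and 185 for Jun and 58.6 and 16.9 for Klf4. It was 17.3 and 18.4 for Atf5 and 2.18 and 14.9 for Egr1. Jun, a subunit of AP-1, had 473, 344, 383 and 358 CPM in knockout and 201, 183, 200.1 and 156 CPM in wild-type libraries (log2 1.07 ± 0.21, adjusted p = 0.00138). Egr1, a zinc-finger factor downstream of ERK, had 24.5, 35.1, 33.1 and 37.4 against 12.1, 14.1, 16.3 and 17.1 CPM (log2 1.14 ± 0.24, adjusted p = 0.00397), and Klf4, a regulator of macrophage polarisation, 25.1, 28.7, 36.5 and 36.7 against 15.2, 19.8, 11.9 and 20.5 CPM (log2 0.92 ± 0.20, adjusted p = 0.00502). The 3 genes were separated completely by genotype. Atf5, of the mitochondrial stress response (log2 0.72 ± 0.19, adjusted p = 0.0222), and Ier2 (log2 0.66 ± 0.17, adjusted p = 0.0231) were the others. Fitted with the block, 7 higher and 2 lower passed. The repressor Bcl6, which belonged to no list and was named after its values were seen, had 35.4, 27.9, 22.4 and 29.7 against 11.9, 16.97, 10.6 and 15.1 CPM (log2 1.08 ± 0.18, adjusted p = 0.000238). Atf5 missed the threshold without knockout library 3 or wild-type library 2, 3 or 4, with adjusted p up to 0.15. Ier2 missed the threshold without knockout library 1 or 3 or wild-type library 1, 2, 3 or 4, with adjusted p up to 0.093.

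Among the enzymes that make small effectors, 3 of 22 were higher and 1 was lower (median 0.25). Ch25h makes 25-hydroxycholesterol, an antiviral oxysterol (Entrez 12642, chromosome 19 at 34473783 to 34475148), and had 578, 420.2, 625 and 441 CPM in knockout and 172, 150.0, 178 and 182 CPM in wild-type libraries, 3.03 times the wild-type mean (log2 1.60 ± 0.30, adjusted p = 0.000739). Nos2, the inducible nitric oxide synthase, had 224, 178, 214 and 194 against 56.4, 82.7, 93.1 and 105 CPM, 2.40 times the wild-type mean (log2 1.27 ± 0.31, adjusted p = 0.0117). Arg1, which draws on the same arginine, had 1.75, 2.72, 2.46 and 1.16 against 5.28, 11.2, 2.84 and 8.66 CPM (log2 −1.79 ± 0.41, adjusted p = 0.00649). Nos2 was thus higher and Arg1 lower, the latter at a low level in all 8 libraries. The prostaglandin-degrading enzyme Hpgd passed with overlapping groups (log2 1.08 ± 0.32, adjusted p = 0.044) and missed with the block on the 8 libraries (adjusted p = 0.0542), where 4 higher and 4 lower on this list passed. Acod1, which makes itaconate (log2 −0.06 ± 0.23, adjusted p = 0.939), and Ptgs2, the inducible cyclooxygenase (log2 0.32 ± 0.26, adjusted p = 0.6), had overlapping libraries and did not pass. Nos2 missed the threshold without wild-type library 1 (adjusted p = 0.0646). Arg1 missed the threshold without wild-type library 2 (adjusted p = 0.0655). Hpgd missed the threshold without knockout library 3 or 4 or wild-type library 1, 2 or 3, with adjusted p up to 0.392.

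Of 34 inflammasome and cell death genes 4 were higher, 3 of them caspases, and none was lower (median 0.19). All 4 missed with pairs summed. Casp1, which cleaves the interleukin 1β precursor, had 387, 279.6, 400.1 and 304 CPM in knockout and 158, 184, 160.2 and 166 CPM in wild-type libraries (log2 1.03 ± 0.25, adjusted p = 0.0104). Casp4 (caspase 11), the cytosolic sensor of LPS, had 139.8, 174, 131 and 179 against 78.3, 103, 89.2 and 105 CPM (log2 0.74 ± 0.15, adjusted p = 0.00171). Both genes were separate between genotypes. Blocked on the replicate number, 6 higher and 1 lower passed. Casp8 (log2 0.83 ± 0.23, adjusted p = 0.0306) and the receptor Tnfrsf1a (log2 0.49 ± 0.14, adjusted p = 0.043) also passed, and the inflammasome sensor Nlrp3, at 623 to 694 against 639.5 to 757 CPM, did not (log2 −0.07 ± 0.15, adjusted p = 0.882). Casp8 missed the threshold without knockout library 2, 3 or 4 or wild-type library 1, 2, 3 or 4, with adjusted p up to 0.115. Tnfrsf1a missed the threshold without knockout library 1, 2, 3 or 4 or wild-type library 1, 2 or 4, with adjusted p up to 0.214.

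A microRNA gene stood among the lower genes. Mir155 (Entrez 387173, chromosome 16 at 84714140 to 84714204) had 57.7, 59.1, 61.2 and 57.1 CPM in knockout libraries and 83.3, 346, 106 and 302 CPM in wild-type libraries (log2 −1.83 ± 0.32, adjusted p = 0.000393). The knockout libraries were alike, whereas in the wild-type group both of libraries 2 and 4 lay far above both of libraries 1 and 3. Adss, an enzyme of adenine nucleotide synthesis, had the same split, with 58.8, 43.0, 51.9 and 52.6 against 65.5, 234, 60.3 and 214 CPM (log2 −1.47 ± 0.31, adjusted p = 0.00356). In libraries 1 and 3 alone Mir155 passed (adjusted p = 0.0337) and Adss did not (0.534). If those libraries are repeats of 1 sample, that fit measures technical spread only. Without wild-type library 2 Adss passed at an adjusted p of 0.0446. Mir221 had 1.31, 23.5, 1.17 and 13.9 CPM in knockout and 1.65, 0.825, 0.355 and 0 CPM in wild-type libraries (log2 3.50 ± 0.80, adjusted p = 0.00701), and was high in knockout libraries 2 and 4. Mir221 missed the threshold without knockout library 2 (adjusted p = 0.0665). Libraries primed on poly(A) tails report the primary transcript of such genes and not the mature microRNA. The mature strands that these genes encode (RefSeq, GRCm38.p6) are given 5' to 3', with the seed, bases 2 to 8, in capitals. The 4 seeds differ from each other.
miR-155-5p (chr16:84714143-84714165, plus strand): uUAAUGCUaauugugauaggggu
miR-155-3p (chr16:84714182-84714202, plus strand): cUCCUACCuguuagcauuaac
miR-221-3p (chrX:19146307-19146329, minus strand): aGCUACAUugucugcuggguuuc
miR-221-5p (chrX:19146344-19146369, minus strand): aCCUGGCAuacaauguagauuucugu

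**Figure D3:**
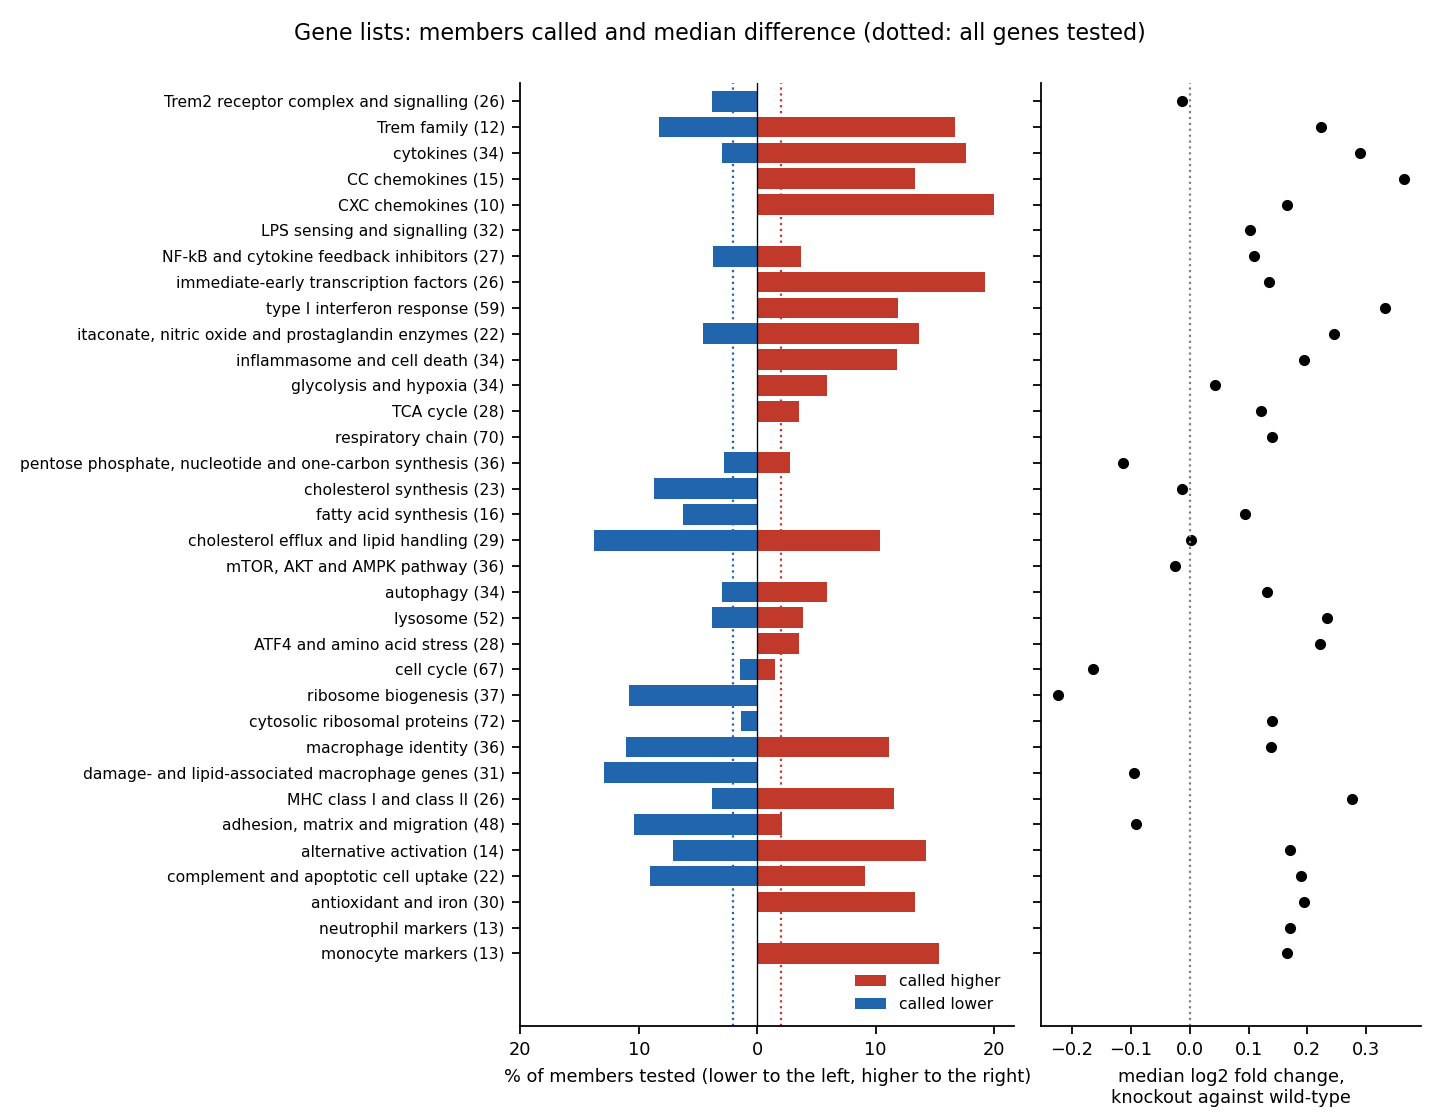
Left, the percentage of each gene list's tested members (number in brackets; lists with 10 or more) called higher (red, rightward) or lower (blue, leftward) in the knockout; right, the list's median log2 fold change. Dotted lines mark all genes tested, at 1.98% higher, 2.05% lower and a median of 0.00; the interferon list has 7 of 59 members higher and ribosome biogenesis 4 of 37 lower.

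The series title names energetic and biosynthetic metabolism, and in these LPS-treated cells few metabolic genes passed. Over all genes tested the share was 4.04%. Of 34 glycolysis and hypoxia genes 2 were higher (median 0.04), of 28 TCA cycle genes 1 was higher (median 0.12), and none of 70 respiratory chain genes (median 0.14, 5 with an unadjusted p under 0.05) and none of 36 genes of the mTOR, AKT and AMPK pathway (median −0.03, 5 with an unadjusted p under 0.05) passed. The blocked fit gave 5 higher and 1 lower for glycolysis, 5 higher for the TCA cycle, 5 higher for the respiratory chain and 1 lower for the mTOR list. The respiratory chain count was below the 12.6% that this fit called over all genes, and nothing is read from these counts. Hk3, a hexokinase of myeloid cells, had 158, 140.4, 186 and 158 CPM in knockout and 100.4, 73.4, 104 and 97.2 CPM in wild-type libraries (log2 0.78 ± 0.16, adjusted p = 0.00227). Pfkp, a phosphofructokinase, was higher (log2 0.61 ± 0.18, adjusted p = 0.0446), whereas the LPS-induced hexokinase Hk2 (log2 −0.15 ± 0.18, adjusted p = 0.763) and the glucose transporter Slc2a1 (log2 −0.29 ± 0.15, adjusted p = 0.345) did not pass. Idh3b, a subunit of the NAD-linked isocitrate dehydrogenase, had 93.3, 118, 93.2 and 146 against 58.2, 64.5, 61.4 and 62.1 CPM (log2 0.87 ± 0.16, adjusted p = 0.000588), with no overlap. Of 36 genes of pentose phosphate, nucleotide and one-carbon synthesis, G6pdx, the entry enzyme of the pentose phosphate route, was higher (log2 0.73 ± 0.17, adjusted p = 0.00776) and Adss lower (median −0.11), and with the block 4 higher and 2 lower passed. Nnt, the mitochondrial transhydrogenase, which belonged to no list and was named after its values were seen, had 17.5, 27.4, 23.1 and 26.4 against 10.1, 10.8, 13.8 and 10.1 CPM (log2 1.07 ± 0.21, adjusted p = 0.00138). Pfkp missed the threshold in each of the 8 omissions of 1 library, with adjusted p up to 0.202.

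Lipid genes moved in both directions. Of 23 cholesterol synthesis genes 2 were lower (median −0.01): Hsd17b7, at 24.7, 17.1, 24.4 and 20.8 CPM in knockout and 43.0, 45.0, 42.4 and 45.0 CPM in wild-type libraries (log2 −1.01 ± 0.21, adjusted p = 0.00353), and Sc5d (log2 −0.72 ± 0.17, adjusted p = 0.00879). In the blocked fit 4 lower passed. Of 16 fatty acid synthesis genes (median 0.09) the acyl-CoA synthetase Acsl1 was lower (log2 −0.66 ± 0.16, adjusted p = 0.00835). Of 29 genes of cholesterol efflux and lipid handling, 3 were higher and 4 lower (median 0.00). Lpl, lipoprotein lipase, had 2259, 2469, 2177 and 2873 against 3759, 5003, 3911 and 4414 CPM (log2 −0.81 ± 0.16, adjusted p = 0.00145), and Nr1h3, the sterol sensor LXRα, had 4.59, 5.44, 7.02 and 5.98 against 18.4, 13.2, 15.8 and 17.8 CPM (log2 −1.48 ± 0.27, adjusted p = 0.000725). Neither gene had a knockout value within the wild-type range. The scavenger receptors Cd36 (log2 −0.52 ± 0.15, adjusted p = 0.0428) and Olr1 (log2 −1.24 ± 0.35, adjusted p = 0.0351) were lower as well. LXRβ, Nr1h2, went the other way (log2 0.74 ± 0.18, adjusted p = 0.0139), as did the sterol exporter Abcg1, at 93.9, 90.0, 99.0 and 121 against 48.1, 58.8, 59.2 and 59.6 CPM (log2 0.84 ± 0.21, adjusted p = 0.0149), and Ch25h. Abca1 (log2 −0.45 ± 0.21, adjusted p = 0.281) and Apoe (log2 0.28 ± 0.14, adjusted p = 0.298) did not pass. Abca1 was called lower with the block on the 8 libraries (adjusted p = 0.0355), a setting in which Olr1 missed (0.0653). Abca1 missed with pairs summed (adjusted p = 0.797). Sc5d missed the threshold without wild-type library 2 or 4, with adjusted p up to 0.0536. Acsl1 missed the threshold without wild-type library 2 (adjusted p = 0.0535). Cd36 missed the threshold without knockout library 1, 2 or 4 or wild-type library 2 or 4, with adjusted p up to 0.172. Olr1 missed the threshold without knockout library 3 or 4 or wild-type library 1, 2 or 4, with adjusted p up to 0.171. Nr1h2 missed the threshold without knockout library 2 or 4 or wild-type library 1 or 2, with adjusted p up to 0.0595. Abcg1 missed the threshold without knockout library 4 or wild-type library 1, with adjusted p up to 0.0741.

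Lysosomal genes showed a small upward shift, with calls in both directions. Of 52 tested, 2 were higher and 2 lower, with a median of 0.23, and with the block on the 8 libraries 11 higher and 3 lower. Over all genes tested 1.98% were higher and 2.05% lower, and 12.6% passed with the block. The shares of this list lay above these, on few genes in the main fit. Ctsl, the protease cathepsin L, had 706, 568, 704 and 554 CPM in knockout and 1228, 1081, 1227 and 1084 CPM in wild-type libraries (log2 −0.87 ± 0.17, adjusted p = 0.00147), and Atp6v0d2, a proton pump subunit of osteoclasts and macrophages, 4.37, 3.21, 2.22 and 2.99 against 10.8, 9.55, 10.6 and 4.95 CPM (log2 −1.55 ± 0.31, adjusted p = 0.00171). The glycosidase Gusb was higher (log2 0.65 ± 0.15, adjusted p = 0.00683), and so was the membrane protein Lamp2, at 939, 574, 897 and 594 against 437, 404, 455 and 446 CPM (log2 0.79 ± 0.23, adjusted p = 0.0381). Lamp2 split the knockout group, with libraries 1 and 3 above libraries 2 and 4. Of 34 autophagy genes 2 were higher, Gabarap (log2 0.58 ± 0.15, adjusted p = 0.0175) and the cargo receptor Sqstm1 (log2 0.52 ± 0.15, adjusted p = 0.0349), and the transcription factor Mitf was lower (log2 −0.58 ± 0.17, adjusted p = 0.039), around a median of 0.13. Of 28 ATF4 and amino acid stress genes, Ppp1r15a, which reverses the translation block, was higher (log2 0.59 ± 0.16, adjusted p = 0.0313, list median 0.22). With the block 4 higher and 1 lower passed for autophagy and 4 higher for the ATF4 list. Lamp2 missed the threshold without knockout library 1 or 3 or wild-type library 1, 2, 3 or 4, with adjusted p up to 0.157. Gabarap missed the threshold without knockout library 1 or 3 or wild-type library 2, with adjusted p up to 0.0973. Sqstm1 missed the threshold in each of the 8 omissions of 1 library, with adjusted p up to 0.139. Mitf missed the threshold without knockout library 1, 2, 3 or 4 or wild-type library 2, 3 or 4, with adjusted p up to 0.158. Ppp1r15a missed the threshold without knockout library 1, 2 or 4 or wild-type library 1, 2 or 4, with adjusted p up to 0.102.

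Genes that build ribosomes leaned lower. Of 37 ribosome biogenesis genes 4 were lower and none higher, only 4 had a positive fold change, and the median was −0.22. Rrs1 had 65.8, 80.3, 60.8 and 76.0 CPM in knockout and 99.4, 131, 111 and 118 CPM in wild-type libraries (log2 −0.70 ± 0.16, adjusted p = 0.00667), Bysl 15.5, 21.0, 15.7 and 11.5 against 29.6, 31.9, 27.3 and 29.9 CPM (log2 −0.91 ± 0.21, adjusted p = 0.00857) and Nop58 229, 367, 173 and 297 against 425, 621, 376 and 504 CPM (log2 −0.85 ± 0.23, adjusted p = 0.0265). Polr1a, the large subunit of RNA polymerase I, was lower (log2 −0.89 ± 0.25, adjusted p = 0.0342). The first 3 were separated by genotype in every library. In the fit with the block 13 members were lower, and with pairs summed none. The cytosolic ribosomal proteins differed from this, with a median of 0.14 over 72 genes and only Rpl6 called, lower (log2 −0.57 ± 0.17, adjusted p = 0.049). Of 67 cell cycle genes, the cyclin Ccnd2 was higher, at 356 to 475 against 208 to 287 CPM (log2 0.78 ± 0.16, adjusted p = 0.00307), and the spindle factor Tpx2 lower (log2 −0.81 ± 0.24, adjusted p = 0.0446), around a median of −0.16. With the block 6 higher and 3 lower passed for ribosomal proteins and 2 higher and 13 lower for the cell cycle, where the share over all genes was 12.6%, so the count for ribosomal proteins is near the background. Bysl missed the threshold without knockout library 4 (adjusted p = 0.0516). Nop58 missed the threshold without knockout library 1 or 3 or wild-type library 2 or 4, with adjusted p up to 0.128. Polr1a missed the threshold without knockout library 2 or 4 or wild-type library 2 or 4, with adjusted p up to 0.133. Rpl6 missed the threshold in each of the 8 omissions of 1 library, with adjusted p up to 0.157. Tpx2 missed the threshold without knockout library 1, 2, 3 or 4 or wild-type library 1, 2 or 4, with adjusted p up to 0.124.

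Surface receptors that macrophages are recognised by moved both ways, with 4 of 36 identity genes higher and 4 lower (median 0.14), and with the block on the 8 libraries 12 higher and 6 lower. The β-glucan receptor Clec7a (Dectin-1) had 23.4, 44.7, 24.9 and 39.8 CPM in knockout and 90.1, 84.1, 70.1 and 78.7 CPM in wild-type libraries (log2 −1.29 ± 0.24, adjusted p = 0.000631). Clec4n (Dectin-2) went up, at 22.9, 26.4, 29.1 and 24.6 against 10.0, 10.4, 17.2 and 10.6 CPM (log2 1.11 ± 0.21, adjusted p = 0.00112). Mrc1, the mannose receptor, had 572, 755, 606 and 975 against 312, 362, 317 and 387 CPM (log2 1.08 ± 0.25, adjusted p = 0.00683). These 3 pattern receptors were separated by genotype. The Fc receptors Fcgr3 (log2 0.86 ± 0.15, adjusted p = 0.000405) and Fcgr4 (log2 0.76 ± 0.20, adjusted p = 0.0236) were higher, and the chemokine receptor Cx3cr1, at 77.1 to 90.5 against 115 to 150.1 CPM (log2 −0.72 ± 0.16, adjusted p = 0.00581), was lower. Cebpa, a myeloid transcription factor, passed at a very low level (log2 −1.79 ± 0.48, adjusted p = 0.0251) and missed with the block on the 8 libraries (adjusted p = 0.0559). Mrc1 missed the threshold without knockout library 4 (adjusted p = 0.0512). Fcgr4 missed the threshold without knockout library 3 or 4 or wild-type library 1, 2 or 4, with adjusted p up to 0.126. Cebpa missed the threshold without knockout library 1 or 4 or wild-type library 1 or 2, with adjusted p up to 0.101. Of 31 damage- and lipid-associated macrophage genes, Trem2, Clec7a, Lpl and Ctsl were lower and none was higher (median −0.10), and with the block 3 higher and 4 lower. Of 14 genes of alternative activation Klf4 and Mrc1 were higher and Arg1 lower (median 0.17), and with the block 2 higher and 3 lower.

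Antigen presentation, adhesion and iron genes gave smaller groups. Of 26 genes of antigen presentation, MHC class I and II genes among them, 3 were higher, and none of these was a class I or II gene. They were the costimulator Cd86, at 28.6, 24.2, 34.0 and 28.2 against 12.2, 13.3, 13.7 and 19.8 CPM (log2 0.99 ± 0.22, adjusted p = 0.00469), and the immunoproteasome subunits Psmb9 (log2 0.65 ± 0.15, adjusted p = 0.0072) and Psmb8 (log2 0.55 ± 0.13, adjusted p = 0.0119). H2-T23 was lower (list median 0.27). The class I-like H2-T10 and H2-T24, higher as given above, are not on this list. Of 48 adhesion, matrix and migration genes 5 were lower and 1 higher (median −0.09). The lower ones included the proteoglycan Sdc1 (log2 −1.70 ± 0.28, adjusted p = 0.000163), the integrins Itgb7 (log2 −1.10 ± 0.23, adjusted p = 0.00373) and Itgav (log2 −0.52 ± 0.15, adjusted p = 0.045) and the collagen Col4a1 (log2 −2.12 ± 0.53, adjusted p = 0.0139), and Ccrl2, a chemerin-binding receptor, was higher (log2 0.68 ± 0.18, adjusted p = 0.022). Of 22 complement and uptake genes 2 were higher, Gas6, the bridge to apoptotic cells (log2 0.67 ± 0.18, adjusted p = 0.0276), and Cd300lf, and 2 lower, Cd36 and Itgav (median 0.19). Of 30 antioxidant and iron genes 4 were higher and none lower (median 0.19): Slc40a1, the peroxidase Prdx5 (log2 0.58 ± 0.14, adjusted p = 0.0114), the sulfiredoxin Srxn1 (log2 0.66 ± 0.18, adjusted p = 0.0349) and Blvrb of heme breakdown (log2 0.54 ± 0.16, adjusted p = 0.04). Counts with the block were 8 higher and 2 lower for antigen presentation, 4 higher and 11 lower for adhesion, 7 higher and 2 lower for complement and 10 higher and 1 lower for antioxidants. Psmb8 missed the threshold without wild-type library 2 (adjusted p = 0.0535). Itgav missed the threshold without knockout library 2, 3 or 4 or wild-type library 1, 2, 3 or 4, with adjusted p up to 0.173. Col4a1 missed the threshold without knockout library 2, 3 or 4 or wild-type library 2, with adjusted p up to 0.0628. Ccrl2 missed the threshold without knockout library 1 or 4 or wild-type library 1, 2 or 4, with adjusted p up to 0.0873. Gas6 missed the threshold without knockout library 1, 3 or 4 or wild-type library 1, 2, 3 or 4, with adjusted p up to 0.102. Prdx5 missed the threshold without wild-type library 2 (adjusted p = 0.0541). Srxn1 missed the threshold without knockout library 1, 2 or 3 or wild-type library 2, 3 or 4, with adjusted p up to 0.154. Blvrb missed the threshold without knockout library 2, 3 or 4 or wild-type library 1, 2, 3 or 4, with adjusted p up to 0.179.

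Markers of other cell types that such a culture could hold were summed per library. Of 13 neutrophil markers tested none passed (8 positive, 1 with an unadjusted p under 0.05), with a sum of 217 to 272 CPM in knockout and 198 to 220 CPM in wild-type libraries. Monocyte markers summed to 349 to 386 against 278 to 342 CPM, and 2 of 13 were higher, F13a1, at 85.5 to 131 against 38.2 to 50.2 CPM (log2 1.23 ± 0.16, adjusted p = 3.83e-06), and Mgst1 (log2 0.81 ± 0.20, adjusted p = 0.0136). Dendritic cell markers summed to 864 to 1169 against 663 to 778 CPM with Cd24a lower and 8 of 9 not called, and the defining marker Zbtb46 was at 0 in all 8 libraries. Osteoclast markers summed to 81.5 to 127 against 137 to 159 CPM, and 2 of 9 were lower, Atp6v0d2 and Dcstamp, a fusion receptor, at 0.218, 0.742, 0.819 and 0.332 against 2.86, 4.12, 5.32 and 2.23 CPM (log2 −2.70 ± 0.60, adjusted p = 0.00535), with Calcr at 0. Lymphocyte and natural killer markers summed to at most 5.97 CPM, with Cd3e, Cd8a and Ncr1 at 0, and stromal and endothelial markers to at most 74.5 CPM, and none passed in either list (0 and 0 with an unadjusted p under 0.05). Of erythroid, megakaryocyte and mast cell markers only Pf4, which macrophages also make, could be tested and it did not pass (log2 −0.02), with Hba-a1, Hbb-bs and Gata1 at 0. With the block on the 8 libraries 1 higher of the neutrophil, 3 higher and 1 lower of the monocyte and 3 higher and 1 lower of the dendritic cell markers passed. F13a1 made up much of the monocyte difference, with knockout and wild-type means of 106 and 45.2 CPM. Only 8 of the 13 monocyte markers had a positive fold change (median 0.17), so their higher sum does not show a general rise. Of the dendritic cell markers 6 of 9 were positive (median 0.45), and of the osteoclast markers 1 of 9 (median −0.52). The higher sums of monocyte and dendritic cell markers and the lower sum of osteoclast markers accompany the differences above, and their part in them was not tested. In bulk RNA fewer cells of a type and less RNA per cell cannot be told apart. Mgst1 missed the threshold without knockout library 3 or wild-type library 2 or 3, with adjusted p up to 0.0902.

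Genes were also sorted by how wild-type cells in low M-CSF responded to LPS, a comparison that uses none of the 8 libraries. Of 2006 genes that LPS raised more than 2-fold there at an adjusted p under 0.05, 100 (4.99%) were higher and 54 (2.69%) lower in the knockout, with a median of 0.07. Of 2827 genes that LPS lowered as much, 37 (1.31%) were higher and 58 (2.05%) lower, with a median of −0.09. The remaining 6411 genes had 86 (1.34%) higher and 119 (1.86%) lower. Sorted instead by the response of unstimulated wild-type cells to low M-CSF, 1318 genes raised by low M-CSF had 50 (3.79%) higher and 39 (2.96%) lower, and 1153 genes lowered by it had 24 (2.08%) and 25 (2.17%).

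The genotype difference was also tested in the other 3 culture conditions, which share no library with this comparison. In normal M-CSF without LPS 209 genes passed (1.86%), in low M-CSF with LPS 2147 (19.1%) and in low M-CSF without LPS 1879 (16.7%). The comparison without LPS shared 88 genes with the 454, which are 19.4% of the 454 and 42.1% of the 209, and 86 had the same direction. Low M-CSF with LPS shared 207 genes (45.6% and 9.64%, 198 in the same direction), and low M-CSF without LPS 183 (40.3% and 9.74%, 163 in the same direction). In all 4 conditions 61 genes passed in the same direction, 24 higher and 37 lower, among them Trem2, Sftpc, Scgb1a1, Erdr1, Cav1, Sdc1, Nr1h3, Lpl and Ctsl on the lower side and Wdfy1, Enpp4, Slc40a1, Pla2g7, H2-T10, Gas6, Abcg1, Gdf15 and Nnt on the higher side. Passing the threshold in 1 condition and missing it in another does not by itself show a difference between conditions, which was tested as an interaction.

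The genotype difference itself differed between cells with and without LPS for 60 genes (0.534%), and 36 of them were among the 454. Both tests use the same 8 libraries, so that nothing is read from this overlap. Fgl2 gave 1.76 with LPS and 0.54 without (interaction adjusted p = 0.0103), and Idh3b 0.87 and −0.37 (0.00306). Klf4 was higher in the knockout with LPS (0.92) and lower without it (−0.77, adjusted p = 0.0219), and the interaction passed (0.00136). The interferon-stimulated genes Gbp2, Cmpk2, Ifit1 and Usp18 and the immune genes Casp8, Tnfsf10, Fcgr3 and Bcl6 were higher with LPS, not called without it, and passed the interaction test (adjusted p 0.00136 to 0.0443). The Casp8 interaction depends on widely spread wild-type libraries without LPS, at 63.6 to 231 CPM (mean 115, SD 78.2). The knockout libraries without LPS had 62.8 to 69.4 CPM. For the Il6, Cxcl9, Nos2, Ch25h and Rsad2 differences the interaction missed the threshold (adjusted p 0.584, 0.0885, 0.964, 0.619 and 0.0725). The count of 60 was 31 without knockout library 4 or wild-type library 4, 34 without wild-type library 2 and 0 with pairs summed.

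Between normal and low M-CSF, both with LPS, the difference varied for 617 genes (5.49%). Of these 66 were among the 454, with the same libraries in both tests, and 53 of the 66 were lower in normal M-CSF. Clec7a was lower in normal (−1.29) and higher in low M-CSF (1.07, adjusted p = 0.00112), a reversal that passed the interaction test (5.04e-05). Wild-type cells held 80.7 ± 8.50 CPM in normal and 118 ± 8.27 CPM in low M-CSF, and knockout cells 33.2 ± 10.7 and 248 ± 32.8 CPM (SD, n = 4). H2-T23 (−2.25 and 2.07), Mir155 (−1.83 and 0.84) and Adss (−1.47 and 0.97) also had opposite signs. In these 3 genes the wild-type libraries with LPS in normal M-CSF split into a high and a low pair. The lipid genes Apoe and Abca1, not called in normal M-CSF, were higher in the knockout in low M-CSF by 1.15 and 0.91, and the interaction passed for both (0.00745 and 0.00644). The count of 617 was 322 without wild-type library 2, 376 without knockout library 3, 381 without wild-type library 4 and 1 with pairs summed.

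**Figure D4:**
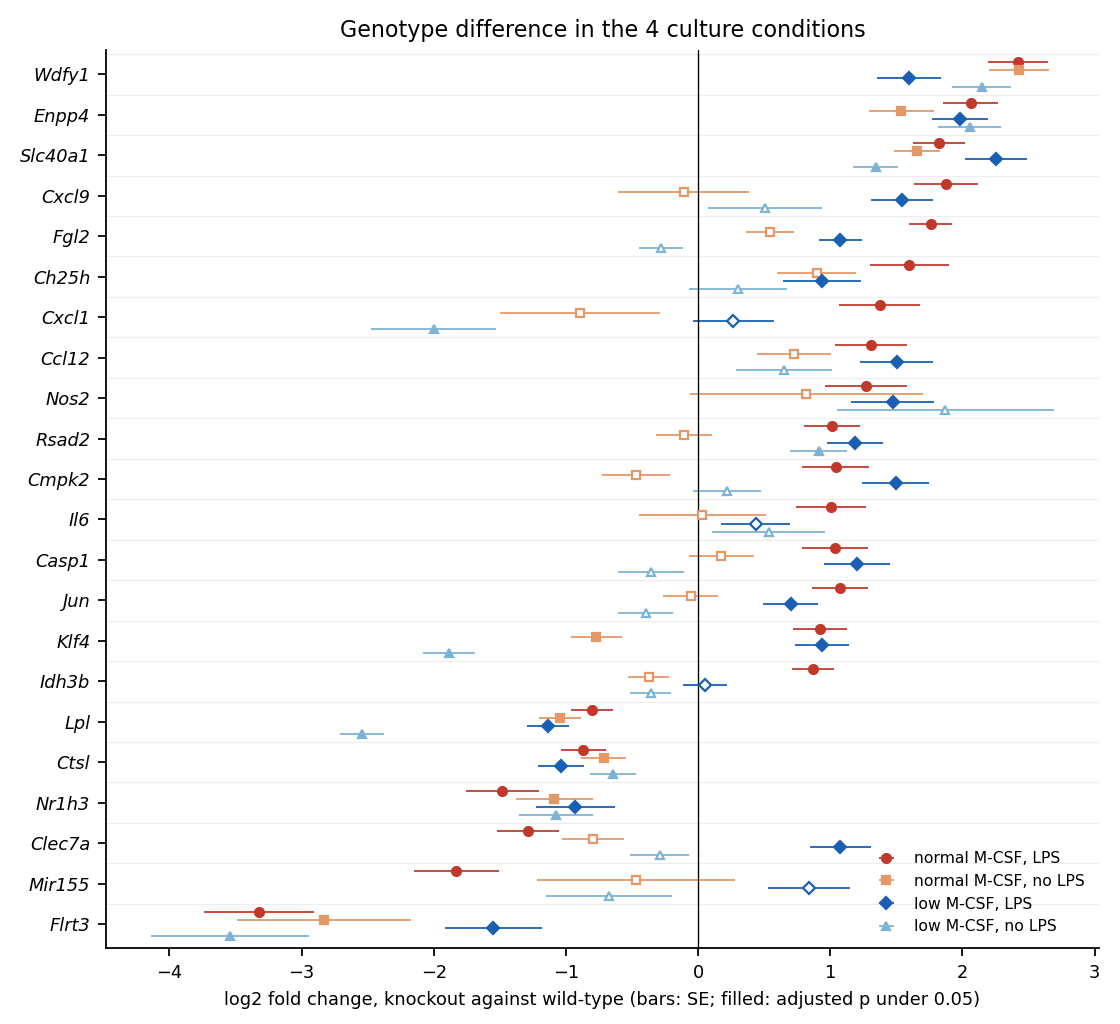
Log2 fold change of the knockout against wild-type (horizontal, with SE bars) for 22 genes in each of the 4 culture conditions, filled where the adjusted p is under 0.05. Wdfy1, Enpp4, Slc40a1, Lpl, Ctsl and Nr1h3 are filled on the same side in all 4. Clec7a is lower in normal and higher in low M-CSF with LPS. Cxcl9, Fgl2, Ccl12, Nos2, Cmpk2 and Casp1 are filled in both conditions with LPS and open in both without. Without LPS the group means of Cxcl9 and Nos2 were at most 1.32 CPM, near the counting floor.

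Called genes were found on all 19 autosomes and on chromosome X, and chromosome 17, which carries Trem2, had the highest share, with 38 of 589 tested genes (6.45%) against 2.48% to 5.29% on the others. Within 5 Mb of the Trem2 start 10 of 69 tested genes passed (14.5%), Trem2 included. On the higher side these were Pla2g7, Enpp4, A530064D06Rik (log2 1.08 ± 0.30, adjusted p = 0.035), B430306N03Rik, Rftn1, a lipid raft protein (65.8, 94.7, 63.3 and 97.6 CPM in knockout and 38.4, 37.7, 41.0 and 37.4 CPM in wild-type libraries, log2 1.06 ± 0.17, adjusted p = 0.000152), and Plcl2, at 26.3 to 38.8 against 10.6 to 17.8 CPM (adjusted p = 0.0104). On the lower side they were Polh, a DNA polymerase (log2 −1.08 ± 0.29, adjusted p = 0.0232), Bysl and Oard1 (log2 −0.98 ± 0.29, adjusted p = 0.0433). Farther along the same chromosome lie H2-T10, H2-T24, H2-T23 and Vmn2r115, a vomeronasal receptor gene with close relatives named after its values were seen (0.218, 0.247, 0.702 and 0.664 against 7.27, 9.43, 6.39 and 11.4 CPM, log2 −4.03 ± 0.50, adjusted p = 1.35e-06). The labels do not give the strain in which the deletion was made, and the part of sequence that flanks it was not tested. A530064D06Rik missed the threshold without knockout library 2 or 3 or wild-type library 1, 2, 3 or 4, with adjusted p up to 0.154. Plcl2 missed the threshold without knockout library 2 or wild-type library 4, with adjusted p up to 0.055. Polh missed the threshold without knockout library 2 or 4 or wild-type library 1 or 2, with adjusted p up to 0.101. Oard1 missed the threshold without knockout library 1, 3 or 4 or wild-type library 2, 3 or 4, with adjusted p up to 0.168.

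**Figure D5:**
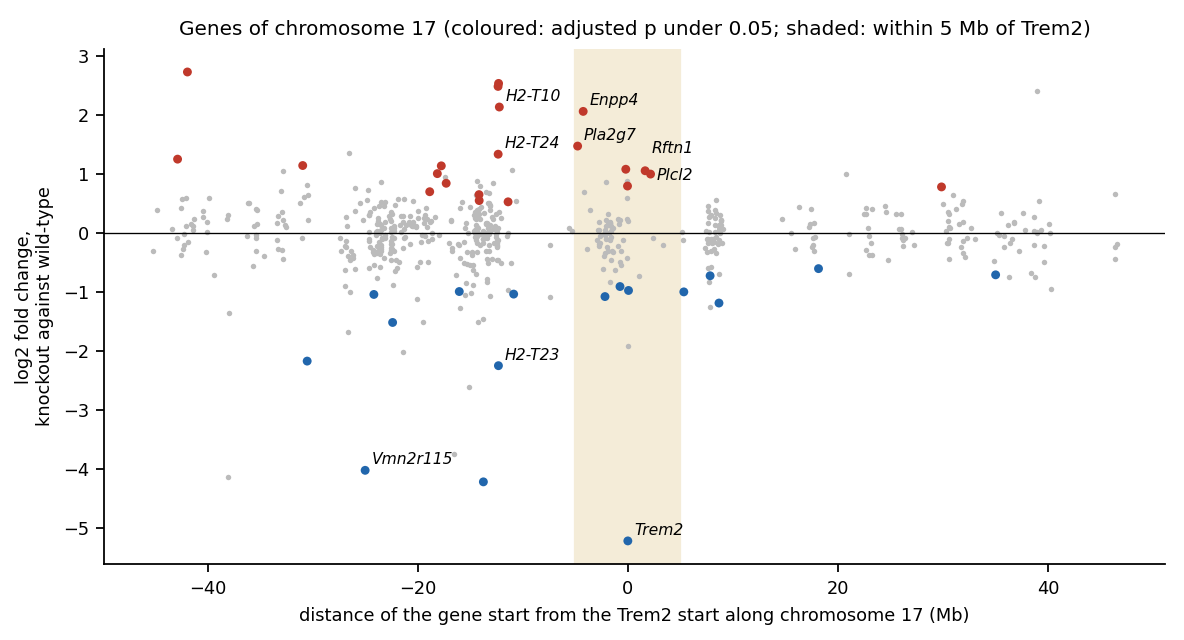
Log2 fold change, knockout against wild-type, of the 589 tested genes of chromosome 17 by the distance of their start from that of Trem2 in Mb, coloured red (higher) or blue (lower) where the adjusted p is under 0.05. Inside the shaded 5 Mb on each side 10 of 69 genes are coloured, with Enpp4 and Pla2g7 the highest and Trem2 the lowest.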

How the data were processed

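Libraries were 3' end RNA-seq, primed on poly(A), barcoded and pooled, with strand kept, per the labels' protocols. The labels mention no molecular identifiers, so reads are not independent molecules and floors cover counting error only. The authors deposited 1 table of raw read counts per gene for 32 libraries. STAR, HTSeq, DESeq2 and mm10 are named in the submitters' processing notes. Annotation, strand setting and versions are not given in the sources used here. Of 24885 gene IDs, 23969 (96.3%, holding 99.5% of counts) matched the RefSeq annotation of GRCm38.p6.

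Groups followed the labels. Counts of all 32 libraries were fitted with edgeR 4.0.16 (R 4.3.3, limma 3.58.1), with 1 mean per group, TMM scaling and filterByExpr, which kept 11244 genes. The quasi-likelihood test was two-sided, with Benjamini-Hochberg adjustment and a threshold of 0.05. Trem2 was tested by exact permutation of log2(CPM + 1). The scripts were tested on simulated data. Members and gene lists were chosen with earlier results of these data known.

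Genes named were Trem2, the 15 highest and 15 lowest log2 fold changes among called genes whose groups did not overlap and whose mean reached 10 CPM in at least 1 group, up to 4 called members with the smallest p in each gene list, and landmark genes of each pathway. Named outside this rule, after their values were seen, were Treml2, Trem1, Ifit1, Bcl6, Nnt, Mir221, Vmn2r115, Il15, Slfn4, Usp18, Ier2, Abcg1, Olr1, Cx3cr1, Fcgr4, Cebpa and Ccrl2. Single values of a few list members are not reported here.

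Replicate numbers are shared between groups. Same-numbered libraries deviated together over 5887 genes with a mean of at least 20 CPM (r = 0.123, 0.309, 0.367 and 0.207 for numbers 1 to 4). Over these genes knockout library 4 deviated most like wild-type library 2, and each of the others most like its own number. Over all 11244 genes r was 0.0662, 0.167, 0.194 and 0.0975, and each number was most like its own. The labels give no meaning to the numbers, and blocked values are given for named genes whose call they change. Alternatives were RLE size factors, DESeq2 1.42.0, no filter, smaller sets of libraries, the block, summed pairs and omission of each library.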

Additional observations from a re-analysis of the deposited data

Results flagged for a closer look

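In groups of 4 libraries, a library whose gap to its nearest neighbour took up more of the group's range than Dixon's 95% critical value was marked. Of 296 groups tested, 9 held such a library, where chance marks about 5% of groups. Knockout library 3 was apart from the other 3 knockout libraries for Rsad2 (14839 CPM, the lowest), Atf5 (39.1 CPM), Sdc1 (6.67 CPM) and Mgst1 (38.6 CPM), and knockout library 2 for Plcl2 (38.8 CPM). Wild-type library 1 was apart for Gbp2 (339.8 CPM), Srxn1 (83.7 CPM) and Abcg1 (48.1 CPM), and wild-type library 3 for Clec4n (17.2 CPM).

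The genotype difference of 14 named genes was not the same with and without LPS in normal M-CSF, by the edgeR interaction with Benjamini-Hochberg adjustment. The log2 difference with LPS minus that without was −2.15 for Trem2 (adjusted p = 7.09e-05) and −1.58 for the spindle factor Tpx2 (0.0159). It was above 0 for the others. Among interferon-stimulated genes it was 1.01 for Gbp2, 1.51 for Cmpk2 and 1.61 for Ifit1 (each 0.0399), and 1.29 for Usp18 (0.0443). Among other immune genes it was 1.22 for Fgl2 (0.0103), 1.83 for Tnfsf10 (0.0159), which was near the counting floor without LPS, 1.61 for Casp8 (0.0103) and 0.89 for Fcgr3 (0.0399). Among transcription factors it was 1.70 for Klf4 and 1.53 for Bcl6 (each 0.00136). It was 1.25 for Idh3b (0.00306) and 4.69 for Mir221 (0.0446).

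Between normal and low M-CSF, both with LPS, the difference was not the same for 15 named genes. The value in normal minus that in low M-CSF was −4.33 for H2-T23 and −2.67 for Mir155 (each adjusted p = 0.000562), −2.44 for Adss (0.00129) and −2.36 for Clec7a (5.04e-05). For lipid genes it was −1.81 for Abcg1 (0.00102), −1.35 for Abca1 (0.00644), −0.86 for Apoe (0.00745) and −1.58 for Olr1 (0.0309). It was −1.77 for Flrt3 (0.0497), −1.74 for Eepd1 (0.00947) and −2.23 for Cebpa (0.0438). Above 0 it was 2.23 for Tubb2b (0.0429), 0.82 for Idh3b (0.0314), 1.43 for Sdc1 (0.0326) and 5.09 for Mir221 (0.00453). With libraries summed in pairs no interaction with LPS and 1 with M-CSF passed over all genes.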

How the results depend on the processing

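The count of 454 genes (223 higher, 231 lower) was 687 with DESeq2 (346 higher), 866 in the 8 libraries alone (457 and 409), 1271 there with the replicate block (631 and 640) and 416 with the block over 32 libraries. It was 44 with libraries summed in pairs (17 and 27), 698 in libraries 1 and 3 alone (346 and 352) and 1081 in libraries 2 and 4 alone (475 and 606), the last 2 settings chosen after seeing the data. Each of those 2 settings holds 1 sample per group if the pairs are repeats. Leaving out 1 library gave 230 to 361 genes (112 to 158 higher, 118 to 204 lower). The share called higher was 49.1%, and 38.6% with pairs summed. RLE size factors (442 genes), no filter on low counts (448) and the 16 libraries with LPS (431) stayed within 1.5 times.

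Leaving out 1 library gave a Trem2 difference of −5.29 to −4.92 in log2(CPM + 1), with an exact permutation p of 0.0571, the smallest that 35 arrangements allow. The interaction with LPS (60 genes) ranged from 31 to 51 and that with M-CSF (617) from 322 to 582, and with pairs summed they were 0 and 1. With pairs summed the other conditions gave 37 (normal M-CSF without LPS), 492 (low with LPS) and 618 genes (low without LPS). The classes then held 8 higher and 8 lower among genes LPS raised, and 7 and 3 among genes low M-CSF raised.

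Of 122 named genes that passed, 97 missed with pairs summed, 33 in libraries 1 and 3 and 13 in libraries 2 and 4. None of those 122 changed sign in any setting run. Among genes that did not pass, Il1b turned to −0.072 in libraries 2 and 4 and ranged from −0.00608 (without wild-type library 1) to 0.20 with 1 library left out, and Ptgs2 to −0.20 in libraries 2 and 4. Acod1 turned to 0.38 in libraries 1 and 3, and to 0.10 and 0.06 without wild-type library 2 or 4. Nlrp3 turned to 0.0042 and Socs3 to −0.14 in libraries 1 and 3. The cause was not tested. At 3 counts, depth limits what can be seen of genes under 0.263 to 0.725 CPM.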
